A study of Drosophila melanogaster with 6 samples.

Results

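The wild type (WT) reference of the study was an expression profile of whole Drosophila melanogaster embryos at stage 11, taken as 3 of the 6 arrays in the series. The embryos were of the strain Oregon R, were aged at 25 C and were sorted by machine before total RNA was extracted. Each array was a biotin-labelled Affymetrix hybridization of 1 RNA sample. The other 3 arrays hold embryos of the same stage that carry the fkh6 allele of fork head, and they were not compared here. The 3 WT arrays were chosen by their labels alone, and all 18769 probe sets were ranked by their mean log2 signal. Because whole embryos were used, fewer cells of a type and less RNA per cell cannot be told apart. By the study's methods each WT array came from a separate collection of embryos, so the spread between arrays holds both biological and technical variation, and each value is an average over many embryos and all their cell types.

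At stage 11 the germ band of the embryo is fully extended. Neuroblasts leave the ectoderm in waves, the tracheal and salivary gland (SG) placodes invaginate, the mesoderm is being subdivided and the midgut primordia have moved inside. Neuroblasts keep dividing while many larval tissues leave the mitotic cycle, and cuticle, contractile muscle and synapses form later in embryogenesis.

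WT embryos gave a signal distribution with a large low peak and a broad upper shoulder. The median probe set was at 5.36 on the log2 scale, with quartiles at 4.68 and 8.63 and a range from 3.21 to 14.77. A level near background was set from genes of adult sense organs: the 95th percentile of 186 probe sets for 166 odorant, gustatory and ionotropic receptor genes, which had a median of 4.52, lay at 5.32. A probe set at or below 5.32 is called near background. A probe set in the top 10% of all probe sets, at or above 10.34, is called abundant, and the range in between is called moderate. The limits were 32.6-fold apart. Near the lower one, lbe at 5.31 fell inside and Hex-A at 5.36 outside, and near the upper one, drm at 10.34 fell just below and CG40228 at 10.35 just above. By these limits 1877 probe sets were abundant, 7669 were moderate and 9223, or 49.1%, were near background. The receptor genes define the lower limit, so their own low level is not a result.

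**Figure D1:**
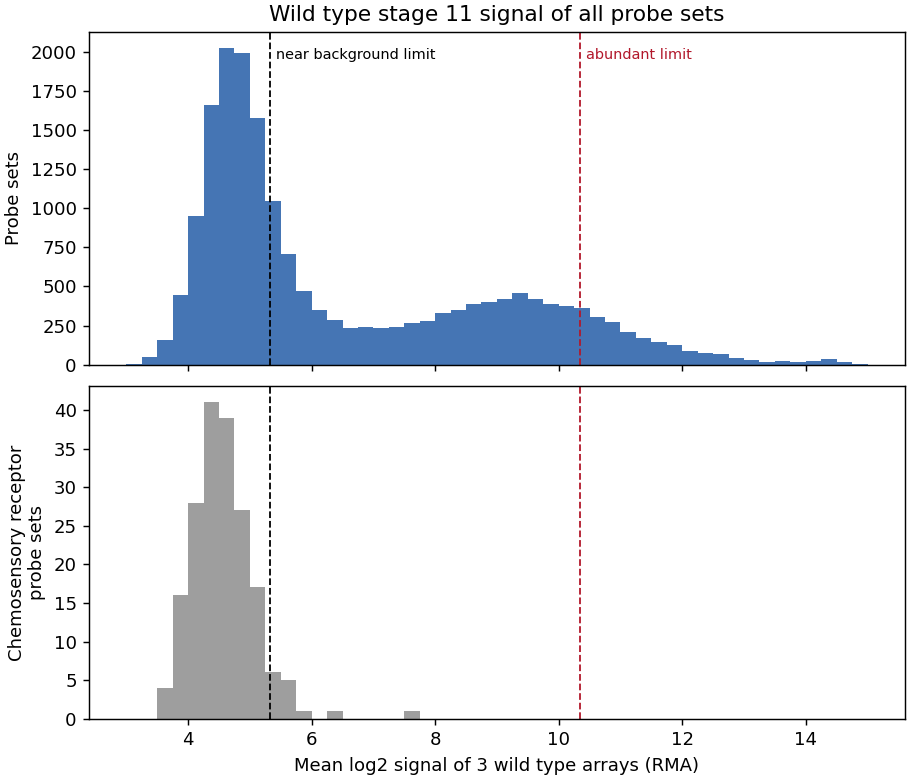
Number of probe sets (y axes) by mean log2 signal of the 3 WT arrays (x axis), for all 18769 probe sets above and for the 186 chemosensory receptor probe sets below. The dashed lines mark the near background limit at 5.32 and the abundant limit at 10.34, and the receptor probe sets lie in the low peak.

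A single gene was named by 13647 of the probe sets, several genes by 402 and no gene by 4720. Genes were represented by their brightest probe set, which gave 11982 genes with a median of 6.31. Among them 1492 genes (12.5%) were abundant, 5955 (49.7%) were moderate and 4535 (37.8%) were near background, and these shares are the background for every gene group described here. Genes known only by a CG number, which have no other name, were near background in 50.8% of 5219 cases and abundant in 5.14%. Genes with a name were near background in 27.8% of 6763 cases and abundant in 18.1%. Long noncoding RNA genes were near background in 60 of 77 cases, and 13 of 13 antisense RNA genes were near background. The unnamed probe sets were near background in 73.0% of cases, but 304 of them were abundant and 18 of the 25 brightest probe sets on the array had no gene name. The ranking of genes therefore leaves out much of the top of the array.

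The 3 arrays agreed closely. The correlation across probe sets, which are not independent replicates, was 0.997 between replicates 1 and 2 and 0.998 for both other pairs. The SD over the 3 arrays had a median of 0.08 over all probe sets, 0.05 for abundant and 0.08 for moderate probe sets. The class of a probe set was the same on every array in 94.5% of cases, and none of the 1041 that changed went from abundant to near background. Probe sets bind their targets with different strength, so a rank orders signals and not numbers of molecules. The error of a comparison between genes is far larger than the replicate SD: for 753 genes with exactly 2 probe sets, the probe sets differed by a median of 0.93 (1.91-fold), and 10% differed by 4.22 or more. Of 1094 genes with more than 1 probe set, 526 had probe sets in different classes. Among them 134 were abundant by their brightest probe set, and 43 of these had their dimmest near background. Dimmer probe sets are given below for some genes only. Small gaps in the order of genes given below lie within the error between probe sets.

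The head of the ranking was made up mostly of genes of the ribosome. Of the 25 brightest genes, 18 encode cytosolic ribosomal proteins, the first being RpS18, at 14.71, 14.72 and 14.72 in replicates 1, 2 and 3. RpL15 followed at 14.67, 14.67 and 14.66, and RpLP1, an acidic stalk protein, at 14.65, 14.66 and 14.63. RpL41, RpS15, RpS27A, RpS20, RpLP2, RpS7, RpL10Ab, RpS26, RpL40, RpS28b, RpL23, RpL29, RpS30, RpS29 and RpL39 completed this group between 14.59 and 14.09. Neighbours in this order differed by far less than the probe sets of a single gene do, so the order within the group is not resolved. RpS7 and RpS29 each had a second, dim probe set, at 5.71 and 4.33, and RpS30 had one at 8.74.

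The other 7 genes among the 25 brightest serve translation, the cytoskeleton, protein modification and Notch signaling. They were eEF5 at 14.35, a translation factor that helps ribosomes through difficult peptide bonds, and eIF4A at 14.08, the RNA helicase of translation initiation. The actin-severing protein cofilin, encoded by tsr, was at 14.31 and the growth-related Tctp at 14.29. Sumo, the small modifier that is attached to other proteins, was at 14.26, and Rack1, a scaffold protein of the small ribosomal subunit, was at 14.23. The seventh, Tom, encodes a Bearded family inhibitor of Notch signaling and stood at 14.05, 14.12 and 14.17. It was the brightest gene with a patterning role, and the only such gene among the 25.

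The groups of genes that every dividing cell uses were abundant nearly throughout. Among cytosolic ribosomal protein genes, 30 of the 36 that could be named were abundant, 4 were moderate and 2 were near background, with a median of 14.09. Another 52 of the 88 ribosomal protein genes on the list had no probe set naming them alone and were not analysed here. Translation initiation factors were abundant in 22 of 23 cases (median 12.26), with pAbp, the poly(A) binding protein, at 13.01 and eIF6, the dimmest, at 10.28. Of 5 elongation factors 3 were abundant, and eEF1gamma stood at 13.53 while eEF1alpha2, an isoform, stood at 5.96. Chaperones were abundant in 14 of 15 cases, led by Hsc70-4 at 14.06, a constitutive Hsp70 protein. Most of them are cytosolic, but Hsc70-3 is of the ER and Hsc70-5 and Hsp60A are of mitochondria. Proteasome core subunits were abundant in 11 of 12 cases and lay in a narrow range from Prosalpha4 at 10.28 to Prosbeta2 at 11.87.

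Nuclear functions were similarly bright. Chromatin proteins were abundant in 18 of 24 cases with a median of 12.02, and the gene of heterochromatin protein HP1a led them at 13.53, 13.49 and 13.51. The histone variant His2Av was at 13.95. Splicing and hnRNP genes were abundant in 18 of 21 cases (median 12.01), with the SR protein B52 at 13.47 and the hnRNP gene Hrb98DE at 13.46. The dimmest probe sets of B52 and Hrb98DE were at 5.70 and 8.63. Nucleolar proteins, which assemble ribosomes, were abundant in 15 of 20 cases (median 11.95), with mod at 13.36 and the methyltransferase gene Fib at 12.57. Nuclear pore and import genes were abundant in 18 of 27 cases (median 10.71). None of these groups had a member near background.

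Cell cycle genes had moderate to high signals. All 31 measured cyclins, cell cycle kinases and mitotic regulators were above the near background limit and 21 were abundant. They include CycE, Cdk2, CycD and Cdk4, which act in G1 or S phase. CycB, the cyclin that drives entry into mitosis, was at 13.16, 13.32 and 13.27. The chromosome passenger gene borr was at 13.15, and the activator of the anaphase promoting complex, fzy, and the checkpoint gene Bub3 were both at 12.56. The dimmest gene was twe, a Cdc25 phosphatase of meiosis, at 7.55. The dimmest probe set of fzy was at 4.55. DNA replication genes were abundant in 12 of 27 cases and moderate in the other 15, with a median of 10.09. PCNA, the sliding clamp of DNA polymerase, was the brightest at 12.90, 12.82 and 12.95, and dup, a licensing factor, followed at 12.29. The origin recognition gene Orc2 was the dimmest at 8.98.

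Energy genes split by pathway. Of 56 ATP synthase and respiratory chain genes 41 were abundant (median 10.84), led by the complex I gene ND-MLRQ at 13.44, 13.44 and 13.48 and by sesB, the ATP/ADP translocase, at 13.18. Of 10 glycolytic enzymes only Ald1, at 10.54, was abundant, 8 were moderate and 1 was near background, with a median of 7.53. The other probe set of Ald1 was at 7.06, so its class rests on the brighter one. Pgi was at 9.63, Eno at 8.93, Pgk at 8.45, Gapdh1 at 7.74 and Pglym78 at 7.33. The lowest were Pfk at 5.86, Hex-A at 5.36 and Hex-C at 4.86. Tpi, which makes glyceraldehyde 3-phosphate, varied among the arrays, with 7.37, 5.68 and 7.15. The difference between both medians was not tested, because probe sets of different genes set their own scale.

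Several broadly used genes have a paralog that in adult flies is mostly limited to the testis or another tissue. Values for 12 such pairs are given as a description, since the pairs were picked after the values were seen. RpL10Ab was at 14.37 and RpL10Aa at 5.15. The main embryonic beta-tubulin gene betaTub56D was at 13.87 and the testis gene betaTub85D at 5.12. RpS28b was at 14.27 and RpS28a at 6.29. Among proteasome subunits, Prosbeta2 was at 11.87 and Prosbeta2R1 at 5.24, Prosalpha3 at 10.77 and Prosalpha3T at 4.71, and Prosalpha6 at 10.99 and Prosalpha6T at 5.15. The complex I gene ND-B14.5A was at 9.45 and ND-B14.5AL at 5.14. The paralog was near background in 9 pairs and moderate in the other 3. A gap to a probe set near background is set in part by the floor of the array, and different probe sets bind with different strength, so the size of these gaps is not a ratio of transcripts.

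**Figure D2:**
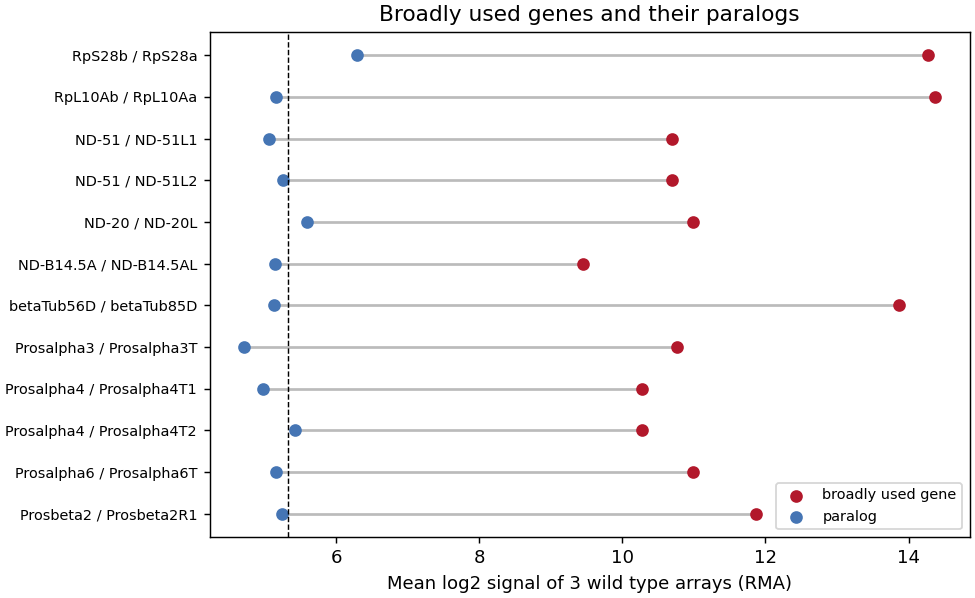
Mean log2 signal of 3 WT arrays (x axis) for 12 pairs (y axis) of a broadly used gene (red) and its paralog (blue). The dashed line is the near background limit at 5.32, and 9 of the blue points lie to its left.

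Genes of the maternal and blastoderm lists had mostly moderate signals. The list of maternal axis and egg activation genes had 5 abundant, 19 moderate and 3 near background members. Its median was 7.23, against 6.31 over all genes, of which 37.8% were near background. The signals do not tell RNA loaded by the mother from RNA made by the embryo. The brightest were the receptor gene Tl at 12.13, with a second probe set at 7.21, cact, the inhibitor of Dorsal, at 11.53, the gap gene hb at 11.05 and the translational repressor gene smg at 11.05. The anterior determinant bcd was at 8.25, 8.48 and 8.81, with another probe set at 5.89, and osk, the organizer of germ plasm, was at 7.47, 6.34 and 6.46. The dorsoventral protease genes snk and gd and the terminal gene trk were the dimmest, between 4.69 and 5.17. Of 9 blastoderm cellularization genes none was abundant. Those near background were Z600 at 4.98, nullo at 4.92 and bnk at 4.82. The others were fog at 9.53, halo at 9.37, mthl1 at 9.01, Sry-alpha at 8.55, T48 at 8.39 and slam at 7.38.

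The segmentation hierarchy lay in the upper moderate range at each tier, with no member of the gap, pair-rule, segment polarity or Hox lists near background. Gap and terminal genes had a median of 9.80 over 15 genes, pair-rule genes 9.84 over 9, segment polarity genes 9.60 over 17 and genes of the Hox list 9.20 over 9. Differences between these medians were not tested. D, a Sox factor that also acts in the nervous system, led the gap list at 12.22, 12.15 and 12.28. Among segment polarity genes ci, the transcription factor of Hedgehog signaling, was at 12.41, 12.36 and 12.38 and nkd, an antagonist of Wingless, at 11.37. The posterior compartment gene en was at 11.33, 11.32 and 11.25, whereas its target hh was at 9.29. The receptor gene ptc was at 6.55, Wnt6 at 5.68 and H15 at 5.42.

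Within the pair-rule and Hox lists single genes covered a wide range. Of the 9 genes on the pair-rule list Ten-m, whose pair-rule role is disputed, was the brightest at 10.70. Next were odd at 10.13, hry, the gene hairy, at 9.99, opa at 9.96 and slp2 at 9.84. The lowest were ftz-f1 at 8.03, ftz at 7.86, prd at 7.26 and eve at 6.79. Of the Hox list, tsh, a trunk factor, was abundant at 11.12. Antp was at 10.10, disco at 9.64, cad at 9.22, Scr, which specifies the labial segment and the SG, at 9.20 and Dfd at 8.89. At the low end were disco-r at 7.68, btn at 6.93 and pb at 6.13. The dimmest probe sets of Antp and disco-r were at 4.59 and 4.52. Ubx, abd-A, Abd-B and lab had no probe set that names them alone and were not analysed here. The cofactor genes exd and hth were not among the measured members either.

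Signaling pathways each had abundant members. Notch pathway and E(spl) complex genes were abundant in 13 of 19 cases with a median of 11.11. Besides Tom, the Bearded family gene Brd was at 13.45, E(spl)m4-BFM at 13.22, 13.44 and 13.37 and E(spl)malpha-BFM at 12.75. The repressor gene E(spl)m7-HLH, a transcriptional target of Notch, was at 12.70. E(spl)m6-BFM was near background at 5.16. In the EGF receptor pathway 6 of 11 genes were abundant, with the ETS repressor aop at 12.62, the ligand gene spi at 12.58, edl at 12.01 and the adaptor drk at 11.26. S was at 10.88, sty at 10.80, Egfr itself at 10.17, Sos at 9.72, aos at 9.62, Dsor1 at 8.66 and kek1 near background at 5.11.

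For Dpp signaling, 8 of 21 genes were abundant (median 9.56), including the receptor genes sax at 11.73 and tkv at 11.70. The ligand gene dpp was moderate at 9.36, 9.32 and 9.59. The early dorsal genes zen, at 5.71, tsg, at 5.35, and scw, at 4.74, formed the low end of that list. Of 6 JAK-STAT genes the receptor dome was at 11.50, Stat92E at 11.32 and Ptp61F at 10.07, and the ligand genes upd1 and upd2 were at 8.99 and 5.68, with et at 4.68.

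Ectodermal and neural progenitor genes had the highest medians of the cell type lists. Of 27 neuroblast and ganglion mother cell genes 16 were abundant and none was near background, and the median was 10.66. After D, SoxN was at 11.47, pdm2 at 11.39 and wor, a Snail family factor of neuroblasts, at 11.44, 11.42 and 11.32. The carrier of asymmetric determinants mira was at 11.39 and pros, which it delivers to the ganglion mother cell, at 11.12. Among proneural genes emc, an inhibitor, was at 12.27, da, the common partner, at 11.91 and l(1)sc at 11.59. The others of that list were ase at 10.15, ac at 10.04, ato at 9.70, tap at 9.43, sc at 8.82, amos at 7.54 and cato at 7.53. Ectodermal epithelium and junction genes were abundant in 17 of 21 cases (median 10.56), with alpha-Cat at 12.40, p120ctn at 11.90 and the claudins kune and sinu at 11.49 and 11.30. The E-cadherin gene shg was at 9.35.

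Genes of differentiated neurons were divided between near background and the higher classes. Of 20 neuronal differentiation genes 10 were near background, 7 were moderate and 3 were abundant, and the median was 5.26. Over all genes 37.8% were near background. The class of the list median became moderate with the 90th percentile of receptors and also without probe sets that match several transcripts. The adhesion genes Fas1, at 11.74, 11.81 and 11.76, and Nrg, at 11.39, and the RNA-binding protein gene elav, at 10.58, 10.78 and 10.62, were abundant. These 3 stood apart from the rest of the list, where the next was fne at 7.16. Synaptic genes ended the list, with Snap25 at 3.82, Syn at 3.63, Rab3 at 3.61 and the acetylcholine transporter VAChT at 3.55. Glial genes ranged from Gli at 11.63, a septate junction gene of other epithelia too, to the astrocyte gene alrm at 3.77. The glial switch gene gcm was at 10.06, 10.01 and 9.94, and repo, which acts after it, was at 7.59, 7.73 and 7.45.

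Mesoderm regulators were mostly moderate, 18 of 22, with a median of 7.99. The abundant members were sna at 11.11, 10.96 and 11.17, which is also a neuroblast gene, and lmd, a regulator of fusion-competent myoblasts, at 10.38. The visceral mesoderm factors bap and bin were at 9.96 and 8.93, the mesoderm determinant twi at 8.93, 8.86 and 9.31, and its target htl, an FGF receptor, at 9.21, 9.11 and 9.59. The founder cell genes slou, at 6.23, lbe, at 5.31, and lbl, at 4.95, were the lowest together with the FGF ligand gene ths at 6.16. Genes of muscle structure were mostly dim: 12 of 20 sarcomere genes were near background, including Mlc2 at 4.18 and TpnC41C at 4.14, and the list median was 5.07. Its bright members were Act87E at 11.13, whose probe set may read near-identical actins and is uncertain, Actn at 10.21 and Zasp52 at 9.23.

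Endoderm and gut regulators were all above the near background limit, with a median of 9.75 over 13 genes. The GATA factor gene srp was at 11.11, 11.23 and 11.13, hkb at 11.03 and drm at 10.34, just below the abundant limit. GATAe, which acts after srp, was at 8.90 and the hindgut determinant byn at 6.75. Hemocyte genes covered the whole range, with 4 abundant, 12 moderate and 8 near background of 24 (median 7.03). The early factors srp and gcm, the cofactor ush at 9.56 and the receptor Pvr at 9.14 were moderate or abundant, as was the scavenger receptor crq at 9.52. Among the 8 near background were Hml at 5.01, NimC1 at 4.46, eater at 3.96 and He at 3.84, which are markers of mature hemocytes. They do not stand for all such markers. Laminin genes led the list, LanB2 at 12.34, 12.25 and 12.21 and LanA at 12.10, whereas the collagen IV gene Col4a1 was at 5.88.

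Genes on the tracheal and SG lists had signals spread over most of the scale. The genes fkh and hkb are also on the gut list and tsh is a trunk factor. These whole-embryo values are therefore not levels in the placodes. The regulator rib, needed in both tubes, was at 13.76, 13.78 and 13.66 and was the brightest transcription factor gene of these lists. Of 13 tracheal genes 5 were abundant. The partner protein gene tgo was at 11.98, salm at 10.73, the FGF receptor gene btl at 8.55 and the POU factor vvl at 8.40. The forkhead factor gene fkh, whose mutant the study used, was at 10.23, 10.11 and 10.28, just under the abundant limit. Of the other genes on the SG list, which had 12 measured members, tsh and hkb were abundant, as was klar at 10.89. The zinc finger factor sens was at 10.05, 9.82 and 9.64, Scr at 9.20, pip at 8.38, the bHLH factor sage at 7.56 and eyg at 6.84. The collagen-modifying enzymes PH4alphaSG2 and PH4alphaSG1, known as SG products, were at 5.77 and 5.44, close to the 5.32 limit. CrebA and trh were not analysed here.

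Genes with SG staining in the study's in situ hybridization screen were read by their temporal class. Of 46 measured early genes 14 were abundant, 31 moderate and 1 near background, and of 56 continuously expressed genes 19 were abundant, 35 moderate and 2 near background, with medians of 9.58 and 9.44. The late class, whose SG staining starts after the stage sampled, had 5 measured genes. The signals here are of whole embryos, so they include other tissues and are not SG levels. The late genes were ncm at 10.83, Mvl at 9.51, CG14756 at 5.44, CG13506 at 4.69 and CG10175 at 4.02, which gave a median of 5.44. The class of this median became near background with the 99th percentile of receptors and also without replicate 3. NHP2, a nucleolar protein gene, was at 12.67 and led the early class, with Pepck1 at 12.19 and Nopp140 at 12.18. The continuous class was led by Sec61beta, a subunit of the translocation channel, at 13.03, 13.03 and 12.95, with CG32276 at 12.87 and the RNA-binding protein gene ps at 12.31. The dimmest probe set of ps was at 4.06. The secretory pathway as a whole was abundant in 25 of 34 genes, with a median of 10.94.

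Amnioserosa and germ line genes gave a mixed picture. Of 13 amnioserosa genes 6 were abundant, with the peptidase gene Ance at 12.06, 11.78 and 11.79, Doc1 at 11.23 and pnr at 11.12, while the early determinant zen was at 5.71. Germ line genes were moderate in 14 of 19 cases (median 8.40). The brightest, Sxl at 10.89, vls at 10.72 and ovo at 10.65, also act in somatic cells or are maternal. The pole cell marker vas was near background at 5.18, 5.31 and 5.25, although pole cells are present at this stage, so a near background signal does not show that a transcript is absent. The Sxl value comes from the brightest of its probe sets, and the dimmest was at 3.98.

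**Figure D3:**
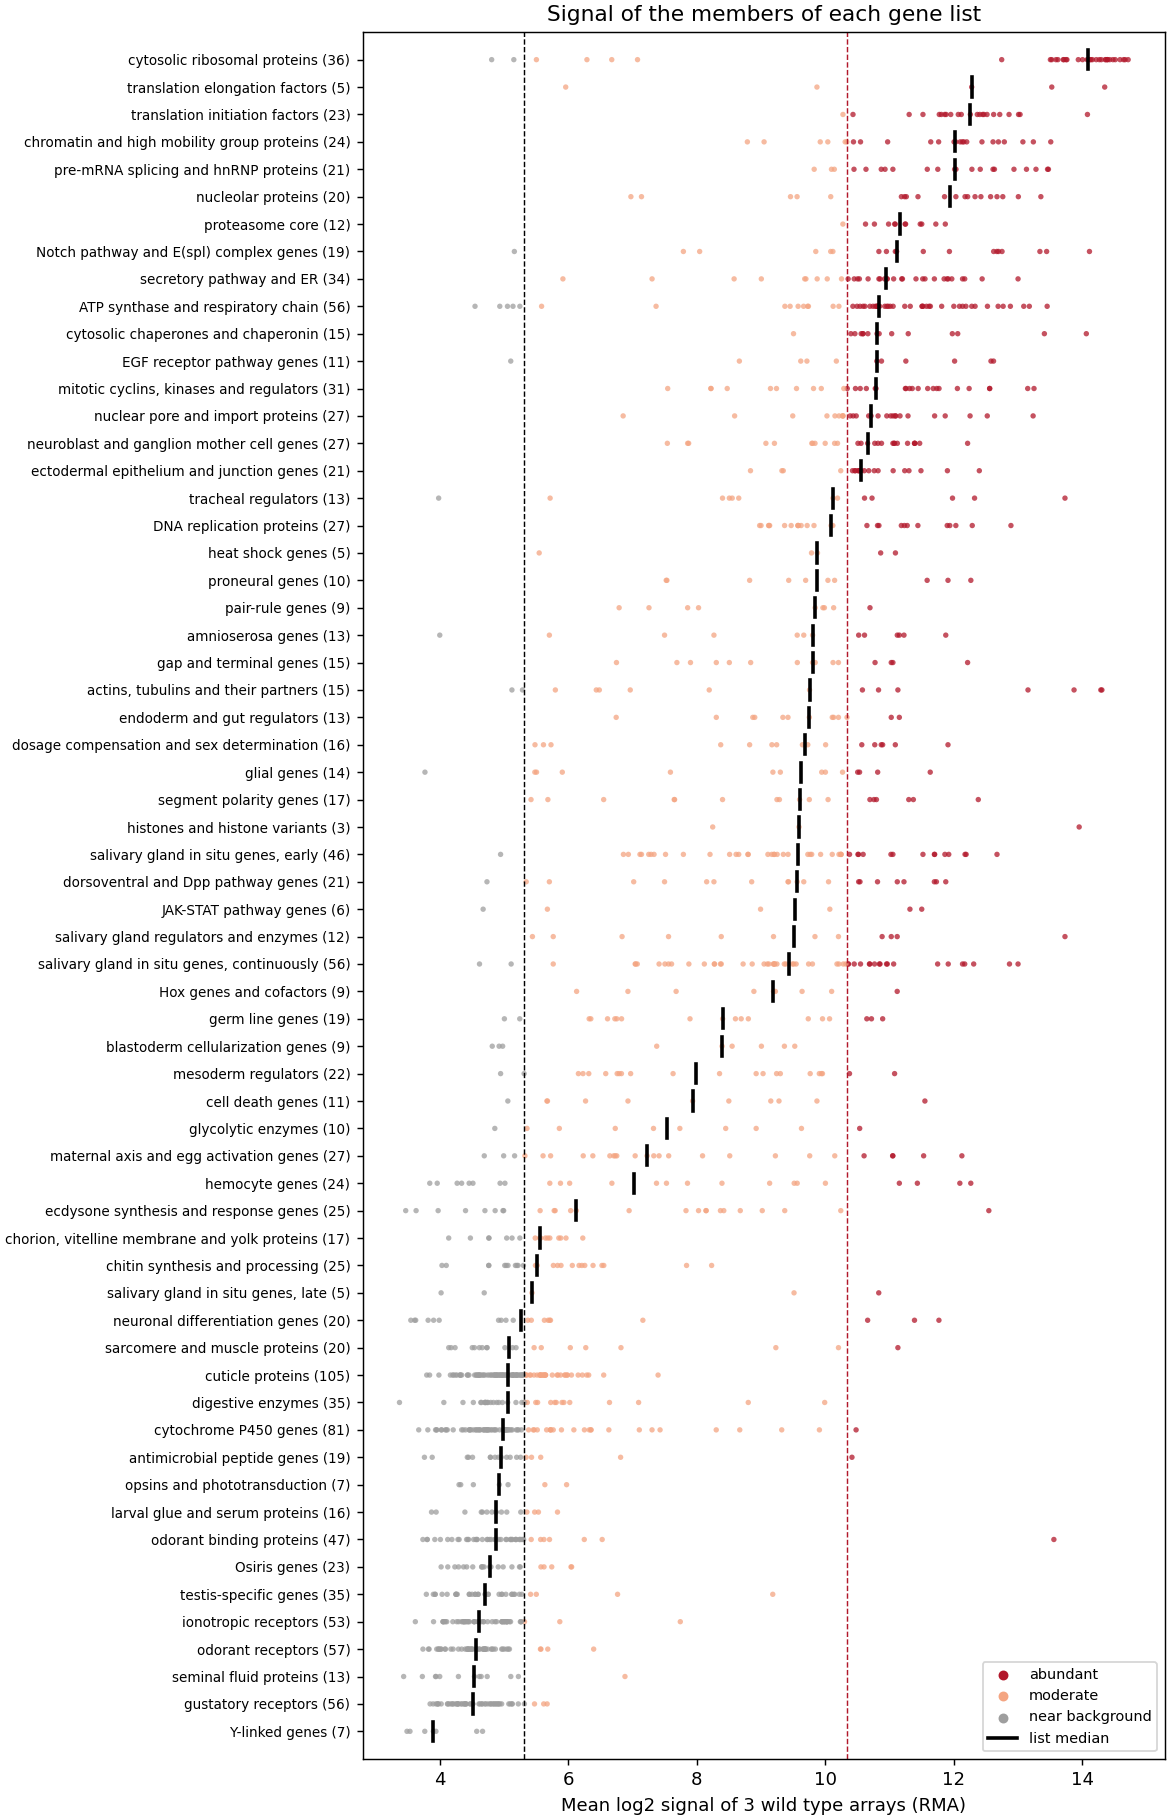
Mean log2 signal of 3 WT arrays (x axis) for the measured members of 62 gene lists (y axis, ordered by median, number measured in brackets), with points coloured by class and a black bar at the list median. The dashed lines mark 5.32 and 10.34, with ribosomal proteins at the top at a median of 14.09 and Y-linked genes at the bottom at 3.90.

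Cuticle and Osiris genes were mostly near background, whereas chitin and ecdysone genes were mostly divided between near background and moderate. Over all genes 37.8% were near background and 49.7% moderate. Both the chitin and the ecdysone median became near background with testis, seminal fluid, opsin and odorant binding protein genes as the reference. The chitin median also did so with the 99th percentile of receptors and with odorant receptors only. Cuticle proteins were near background in 72 of 105 cases, moderate in 33 and abundant in none (median 5.06). The brightest was Lcp65Aa at 7.41, 7.40 and 7.39. Osiris genes, a clustered family of cuticle-forming cells, were near background in 18 of 23 cases (median 4.78), with Osi7 at 6.05 the highest. Of 25 chitin genes 11 were near background and 14 were moderate, and the median was 5.52. The precursor enzyme mmy led at 8.41, 8.20 and 8.09, whereas the chitin synthase kkv was at 6.21, 6.68 and 6.68 and the chitin-binding protein obst-A at 4.03. Of 25 ecdysone genes 8 were near background, 16 were moderate and 1 was abundant, with a median of 6.13. The synthesis genes dib and spo were at 9.37 and 8.42, while nvd and spok, which act in the later ring gland, were at 3.63 and 3.47. The receptor genes EcR and usp were at 7.83 and 8.37. ImpL2, an ecdysone-inducible gene that encodes an insulin-binding protein, stood out from that list at 12.43, 12.64 and 12.57.

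Cell death genes were moderate in 9 of 11 cases, with a median of 7.94. The effector caspase gene Dcp-1 was at 11.55, the inhibitor Diap2 at 9.87, the apoptosome gene Dark at 9.28, skl at 9.15, the initiator caspase Dronc at 8.50 and Dredd at 7.94. Strica was at 6.93, Debcl at 6.27, grim at 5.68, Damm at 5.67 and Buffy at 5.06. The other probe set of Dark was at 5.20.

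Most adult and larval groups had medians near background, with moderate members in each group except the Y-linked genes. Testis-specific genes were near background in 31 of 35 cases, seminal fluid genes in 12 of 13, opsin and phototransduction genes in 5 of 7, and larval glue and serum protein genes in 12 of 16. All 7 Y-linked genes were near background, with a median of 3.90. Odorant binding proteins were near background in 40 of 47 cases, yet Obp99a was at 13.61, 13.56 and 13.51, while the second in the family, Obp99c, was at 6.53. Antimicrobial peptide genes were near background in 14 of 19 cases and moderate in 4, the brightest of which was Drsl4 at 6.82. The abundant one was Drsl5, a Drosomycin-like gene, at 10.82, 10.48 and 9.94. Cytochrome P450 genes were near background in 57 of 81 cases and moderate in 23, with Cyp6d5 abundant at 10.80, 10.50 and 10.15 and Cyp4e2 next at 9.91. Drsl5 and Cyp6d5 were both highest in replicate 1 and lowest in replicate 3.

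Digestive enzymes were near background in 21 of 35 cases and moderate in 14, and the serine protease gene Jon44E was at 9.99 with an SD of 0.05. Jon99Fi, of the same family, was at 3.37. The maltase gene Mal-A5 was at 8.80. Among receptor genes Ir68a was the brightest at 7.81, 7.68 and 7.74, followed by Or43b at 6.40 and Ir40a at 5.87. The seminal fluid gene Acp95EF was at 6.88, and the testis meiosis gene mia at 9.18. Of 17 eggshell and yolk genes 10 were moderate and 7 near background, with a median of 5.55, and none exceeded the 6.23 of Cp38.

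Some genes differed among the 3 arrays. Of genes above the near background limit the serine protease inhibitor gene Spn28Da varied most, at 8.64, 4.46 and 6.63 in replicates 1, 2 and 3 (SD 2.09). CG9184 was at 4.53, 7.89 and 6.64, and CG10591 at 6.05, 8.44 and 6.82. The direction was thus not shared, with Spn28Da lowest and the other two highest in replicate 2. The thioredoxin gene dhd, a maternal transcript, was at 9.46, 7.34 and 9.37, Cyp12d1-d at 6.43, 4.42 and 6.34 and Gyc32E at 6.76, 5.05 and 6.82. CG18754 was high in replicate 1 at 6.91 against 5.09 and 4.88. SNCF was at 8.31, 9.29 and 7.27, the channel gene ppk15 at 4.97, 5.88 and 6.90 and CG13000 at 6.06, 7.21 and 5.32.

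Beyond the 10 most variable genes, the maternal genes exu and BicC were also lowest in replicate 2, at 6.12, 4.64 and 6.07 and at 7.42, 5.75 and 6.78. The late tracheal chitin gene serp was at 5.09, 6.76 and 5.81, and Gasp, a chitin-binding protein gene, at 4.70, 6.40 and 5.45, both highest in replicate 2. These 4 were picked after their values were seen and do not stand for their groups. Of 24 maternal axis genes above the limit 6 were lowest and 10 highest in replicate 2, and of 14 chitin genes 3 were highest there, against 36.6% lowest and 31.3% highest over all genes above the limit.

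The direction of the array differences was counted in 52 gene lists, and those named here were picked after the counts were seen, with no test. Over the 7447 genes above the limit, 2328 (31.3%) were highest and 2727 (36.6%) lowest in replicate 2, 2399 were highest and 2223 lowest in replicate 3, and the remainder had their extreme in replicate 1. DNA replication genes were lowest in replicate 2 in 25 of 27 cases, with a median deviation from each gene's own mean of -0.10 in that array. Glycolytic enzymes were lowest in replicate 2 in 7 of 9 cases. Highest in replicate 2 were 5 of 5 elongation factors, 8 of 12 proteasome subunits and 12 of 18 Notch pathway genes. Nuclear pore and import genes were highest in replicate 3 in 18 of 27 cases, and secretory pathway genes were lowest there in 20 of 34. Of the 16 heat shock genes 5 were measured, and 4 of these were highest in replicate 3. Hsp27 was at 10.68, 11.04 and 11.56, Hsp26 at 9.61, 9.42 and 10.33 and Hsp68 at 9.57, 9.64 and 10.43. The fourth, l(2)efl, had a mean of 5.55 and differed by only 0.01 (SD), and Hsf, their regulator, was at 10.91, 10.83 and 10.85. The inducible cochaperone DnaJ-1, from another list, ran the same way as Hsp27 at 11.68, 12.04 and 12.47. The part of embryo age or handling in these differences was not tested.

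**Figure D4:**
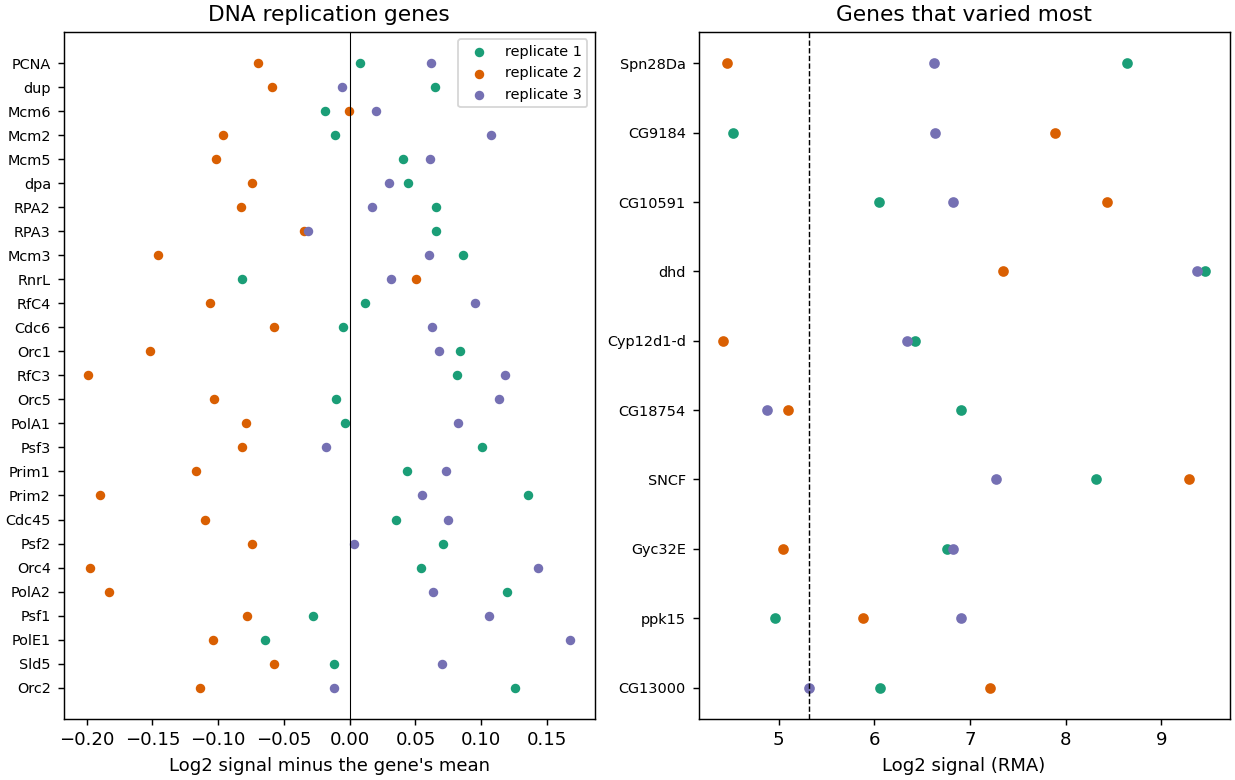
Left, log2 signal minus the gene's own mean (x axis) for 27 DNA replication genes (y axis) in each WT replicate, where replicate 2 is the lowest in 25. Right, log2 signal (x axis) in each replicate for the 10 genes that varied most above the near background limit (dashed line, 5.32), led by Spn28Da with an SD of 2.09.

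Signal classes were counted by chromosome arm, with no test. Near background genes made up between 33.8% (X) and 39.0% (3R) of each large arm, and abundant genes between 10.7% (X) and 13.4% (2R). Moderate genes made up 55.4% on X and between 47.9% and 50.1% on the other large arms, and the median was 6.84 on X and between 6.15 and 6.37 on the others. The small chromosome 4 differed in these counts, with 21 abundant genes of 65 (32.3%) and 17 near background (26.2%). Near background genes were shorter in the genome, with a median span of 1721 bases against 2838 for abundant and 2650 for moderate genes. After a near background gene, the next measured gene along the chromosome was near background in 55.2% of cases, against 37.8% over all genes. After an abundant gene it was abundant in 18.1%, against 12.5% over all genes. Related neighbours, which may share probe sequence, were not set apart.

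**Figure D5:**
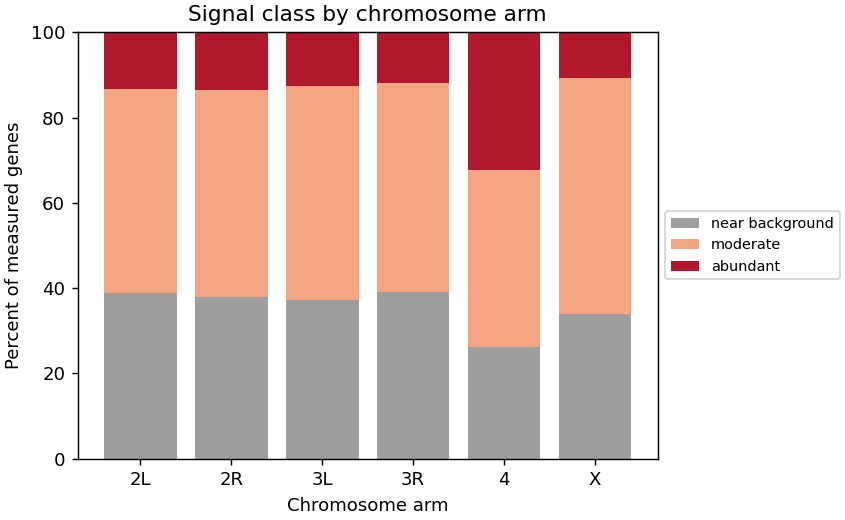
Percent of measured genes (y axis) that were near background, moderate or abundant on each chromosome arm (x axis) in WT stage 11 embryos, without the 7 Y-linked genes. Chromosome 4, with 65 genes, has 32.3% abundant genes and the other arms have between 10.7% and 13.4%.

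Runs of neighbouring abundant genes included 2 of the Notch family clusters. On 3L, BobA, Tom, Brd and Ocho followed each other with signals from 11.93 to 14.11, and on 3R, E(spl)m2-BFM, E(spl)m3-HLH, E(spl)m4-BFM and E(spl)m5-HLH did so with signals from 10.84 to 13.34. No run of abundant genes was longer than 4 among measured genes. These related genes may share probe sequence, so that their separate levels are uncertain.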

How the data were processed

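RNA of stage 11 Oregon R embryos was hybridized to Affymetrix Drosophila Genome 2.0 arrays, 1 array per sample. The deposited values are log2 signals that the authors made with RMA in Partek (versions not given in the sources used here), which corrects background, normalizes quantiles and summarises probes. The arrays normalized together are not given, and quantile normalization gives all arrays nearly the same distribution, so shifts in total RNA are not visible. Detection calls and scanner intensities were not used here, and the number of arrays limits the precision.

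Each probe set was given its mean and SD over the 3 arrays, with Python 3.11.15, pandas 2.3.3 and numpy 2.4.6. Genes were named from GEO's platform annotation, of which 11899 of 11982 matched current RefSeq symbols, and took their brightest probe set. The limits were the 95th percentile of receptor probe sets and the top 10% of all probe sets. With a single group, no test was run. The sorting of values into classes was run on simulated data without differences in binding strength between probe sets, which checks the calculation only. Named genes were the 25 brightest, up to 5 brightest and 3 dimmest of each list, all members of lists of 12 or fewer, defining regulators, and the 10 most variable genes above the limit; paralog pairs, gene clusters and genes pointed out within lists beyond these were picked after seeing values. The members and lists were chosen with earlier results of these data known, and 10 entries that did not belong to their list by function were removed after values were seen. Alternatives changed the limits, the reference genes, the probe set of a gene, the scaling and the arrays. Sequences, promoters and protein lengths were not analysed here.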

Additional observations from a re-analysis of the deposited data

How the results depend on the processing

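The limits are conventions and moved with their definition. The near background limit was 5.09 with the 90th percentile of receptors, 5.95 with the 99th, 6.18 with testis, seminal fluid, opsin and odorant binding protein genes as the reference, and 5.52 with odorant receptors only. Over these the share of genes near background ranged from 31.6% to 49.0% and that of probe sets from 42.3% to 60.5%. The abundant limit was 11.16 for the top 5% and 9.20 for the top 20%, and between 10.34 and 10.35 when each replicate was left out. Of 62 lists, 16 had an abundant median, 30 a moderate and 16 a near background median. The abundant number was 7 with the top 5%, also together with the 99th percentile, and 34 with the top 20%, which left 12 moderate lists. Without probe sets that match several transcripts 16 of the 25 brightest genes stayed among the 25. With the mean of a gene's probe sets 22 stayed, and with each replicate left out 24 or 25. Leaving out each array changed the class of at most 1 list median. Setting ribosomal protein medians equal between arrays cannot change a mean over arrays. No paired analysis was possible because only 1 group was used and no result comes from a test. Signal near background limits what can be said of low transcripts, such as those of few cells.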
